A study of Mus musculus with 9 samples.

Results

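The genes described are those of the cytosolic ribosome of the mouse, chosen by symbol: all genes named Rpl or Rps followed by a number, with Rpsa, Rplp0, Rplp1 and Rplp2, and without the Rps6k kinases. On the arrays 61 of the 19938 genes tested met this rule, 38 of the large ribosomal subunit and 23 of the small. The values come from 9 Affymetrix Mouse Gene 1.0 ST arrays of immortalized mouse embryonic fibroblasts of ICR background. Cells received an adenovirus that expressed an shRNA against HSF1, an shRNA against RPA1 or a scrambled control shRNA, with 3 arrays per group. All 3 groups carried the adenovirus, were exposed to it for 2 h and were then kept for 70 h in medium with 10% serum at 37 degrees. An shRNA is a short hairpin RNA that lowers the level of a chosen transcript. HSF1 is the main transcription factor of the heat shock response, and RPA1 is the large subunit of the complex that binds single-stranded DNA. Whether replicate arrays came from separate cultures is not given in the labels, so the p-values measure only the spread between these samples, which may be technical. Several ribosomal protein genes were not analysed here, among them Rpl3, Rpl11, Rpl39, Rps24, Rps26, Rps27 and Rps27a.

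The cytosolic ribosome translates the messenger RNAs of the nucleus. Its small subunit reads the messenger and its large subunit joins the amino acids, and each ribosomal protein is made in an amount that matches the ribosomal RNA. Transcripts of most of these genes begin with a run of pyrimidines, the 5′ TOP tract, through which mTORC1 and LARP1 control their translation and stability. Some ribosomal proteins that are not built into ribosomes bind MDM2 and so stabilise p53. In growing fibroblasts these transcripts are among the abundant ones.

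The start regions of 6 genes are shown because 5 of them were lower in both knockdowns and 1, Rps27l, was higher under RPA1 shRNA. The sequences are from RefSeq, build GRCm38.p6, and run from 80 bases before the annotated transcript start to 30 bases after it, 5′ to 3′ on the strand of the gene. Capitals mark the longest run of C and T that begins with C, has at least 8 bases and lies within 50 bases of the start. Rpl10a lies on the plus strand at chr17:28328485-28328594, and Rps9 on the plus strand at chr7:3703961-3704070. On the minus strand lie Rps18 at chr17:33955636-33955745, Rps28 at chr17:33824533-33824642 and Rps4x at chrX:102189362-102189471. Rps27l is on the plus strand at chr9:66946006-66946115. Rpl10a and Rps27l each have 2 windows, and the one with the longer run is shown.
Rpl10a: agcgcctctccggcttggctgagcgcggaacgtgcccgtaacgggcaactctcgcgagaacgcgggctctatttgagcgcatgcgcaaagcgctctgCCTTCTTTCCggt
Rps18: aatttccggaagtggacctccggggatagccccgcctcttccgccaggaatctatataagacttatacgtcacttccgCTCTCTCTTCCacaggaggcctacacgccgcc
Rps28: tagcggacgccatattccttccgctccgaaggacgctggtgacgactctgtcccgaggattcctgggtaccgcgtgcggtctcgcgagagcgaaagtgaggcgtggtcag
Rps4x: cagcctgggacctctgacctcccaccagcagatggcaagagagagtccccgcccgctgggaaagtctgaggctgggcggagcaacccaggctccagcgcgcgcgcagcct
Rps9: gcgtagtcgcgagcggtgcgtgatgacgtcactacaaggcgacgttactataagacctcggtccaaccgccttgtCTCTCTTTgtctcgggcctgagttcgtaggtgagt
Rps27l: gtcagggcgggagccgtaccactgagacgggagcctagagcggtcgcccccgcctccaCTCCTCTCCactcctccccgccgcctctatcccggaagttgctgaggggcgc
The runs of Rps18 and Rps9 reach over the start itself, that of Rpl10a begins 18 bases after it, and that of Rps27l ends before it. Rps28 and Rps4x had no such run within 50 bases of the annotated start, with 1 window for each. Whether the run is linked to the differences was not tested.

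RefSeq start windows were matched for 49 of the 61 genes, 58 windows in all, each reaching from 250 bases before the start to 50 after it. A pyrimidine run as defined above stood in 41 of the 58 windows (70.7%), against 28.8% of the 32851 windows of all genes. The letters CCGGAAG, the core bound by ETS factors, stood in 20 of the 58 windows (34.5%), against 8.86% of all windows, searched on both strands. The heat shock element, the site of HSF1, was searched as its palindromes GAANNTTC and TTCNNGAA, which can overlap. At least 1 of these stood in 6 windows (10.3%), those of Rpl22, Rpl24, Rpl27a, Rpl28, Rps7 and Rps18, against 15.1% of all windows. Each palindrome alone stood in 4 windows (6.90%), against 7.86% of all windows for GAANNTTC and 8.52% for TTCNNGAA. CACGTG, the E-box, was found in 7 windows (12.1%), against 7.15% of all, and TATAAA, the TATA box, in 6 (10.3%), against 13.6% of all. A match describes the letters of the window and is not a bound site.

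Rpa1 served as the check of the labels. It read 9.42, 9.34 and 9.40 in the RPA1 shRNA arrays, against 11.40, 11.42 and 11.41 in the scrambled arrays, a log2 difference of -2.02 ± 0.04 (limma adjusted p = 3.5e-08). In the HSF1 shRNA arrays Rpa1 read 11.35, 11.33 and 11.30, which was -0.08 ± 0.04 from the scrambled arrays (adjusted p = 0.27). Hsf1 itself was not analysed here, and its knockdown therefore has no check in these values. Signals are log2 values, and differences are given with the standard error from limma and n = 3 arrays per group throughout. A gene was called higher or lower at a Benjamini-Hochberg adjusted p under 0.05 over all 19938 genes. Of 9 fibroblast markers 8 lay above the median gene, as did 1 of 5 epithelial, 0 of 4 endothelial, 1 of 4 blood and 1 of 4 muscle markers. The median signal of the fibroblast markers was 12.23 under HSF1 shRNA, 11.73 under RPA1 shRNA and 12.37 in scrambled arrays. Among them 3 were called lower under HSF1 shRNA and 7 under RPA1 shRNA. Over all genes 6.21% and 14.7% were called lower in these comparisons, and 9.89% and 15.4% higher. Of the blood markers 1 was called higher under HSF1 shRNA and 3 under RPA1 shRNA, of the muscle markers 1 and 2, and of the endothelial markers 1 in each knockdown. The part of these shifts in the results below was not tested. In such bulk samples fewer cells of a type and less RNA per cell cannot be told apart.

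Under both knockdowns most ribosomal protein transcripts sat slightly below the scrambled control. The shifts were small: the median log2 difference over the 61 genes was -0.09 under HSF1 shRNA and -0.08 under RPA1 shRNA, and no gene moved past 1.5-fold. Over all genes tested the medians were 0.04 and 0.02. Under HSF1 shRNA 48 of 61 genes (78.7%) had a difference below 0, against 38.1% of all genes, and under RPA1 shRNA 46 of 61 (75.4%), against 45.3% of all genes. Both differences lay below 0 for 41 of the 61 genes, against 5158 of all 19938 genes, and both use the same scrambled arrays. In none of the 3 comparisons were 46 of the 61 genes called. Their differences ran between -0.21 and 0.13 under HSF1 shRNA and between -0.20 and 0.25 under RPA1 shRNA.

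**Figure D1:**
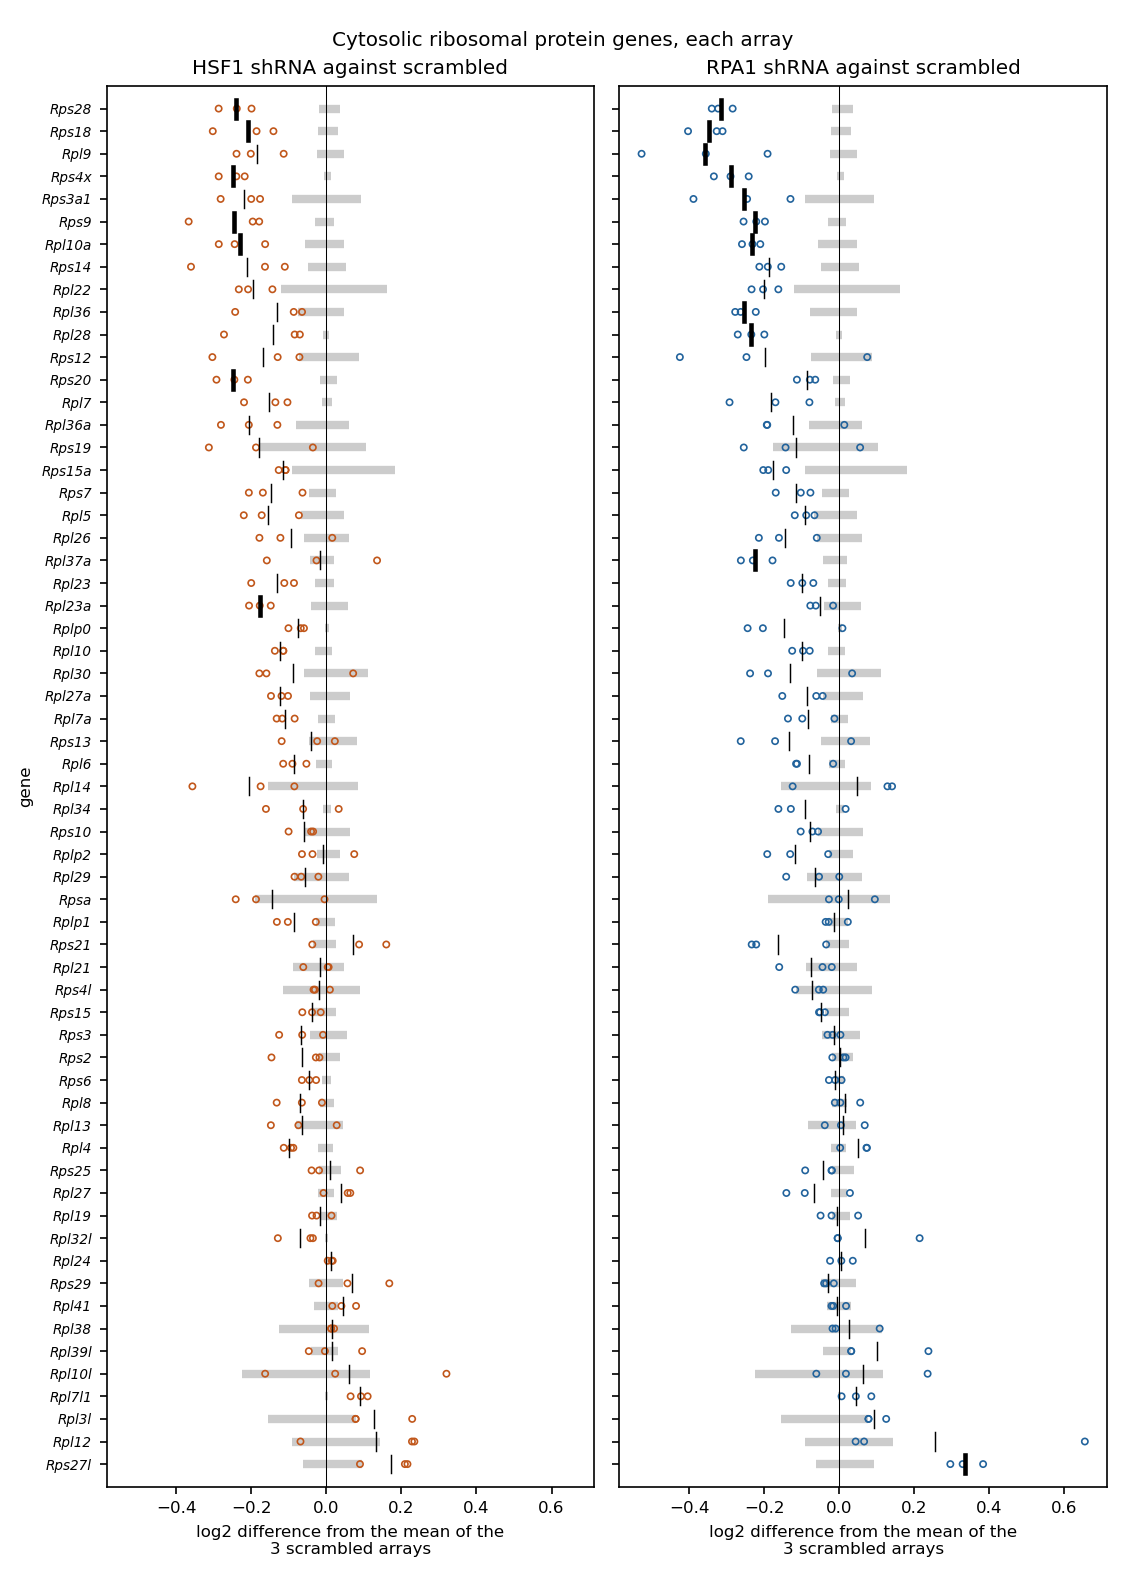
Log2 difference from the mean of the 3 scrambled arrays for each of the 61 ribosomal protein genes (rows), on each HSF1 shRNA array (left, open circles) and each RPA1 shRNA array (right, open circles). Grey bars span the 3 scrambled arrays and upright ticks mark the mean of the knockdown arrays, thick where the gene was called. Most ticks lie left of 0 in both panels, and Rps27l has the highest called mean, at 0.34 under RPA1 shRNA.

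Under HSF1 shRNA 7 genes were called lower, 11.5% of the 61, against a background of 6.21% of all genes called lower. The members are bright, with 56 of 61 above the median gene, and among genes above it 16.1% of members were lower, against 13.4% of genes. None was called higher (0 of 61), against 9.89% of all genes, by limma at the adjusted threshold, while 22 of the 61 had an unadjusted p under 0.05 in either direction, against 28.6% of all genes. Trend and robust moderation called 1 higher, as did array weights. In 26 genes (42.6%) all 3 HSF1 shRNA arrays lay below all 3 scrambled arrays, against 13.9% of all genes. The reverse held for 1 gene, Rpl7l1, against 23.9% of all genes. Of the 7 called genes 5 belong to the small subunit and 2 to the large.

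Rps20, a protein of the head of the small subunit that is ubiquitinated on collided ribosomes, read 13.45, 13.49 and 13.41 under HSF1 shRNA, against 13.69, 13.68 and 13.73 in scrambled arrays. It fell by 15.8% (log2 -0.25 ± 0.04, limma adjusted p = 0.0056), and no HSF1 shRNA array reached the lowest scrambled one. Rps4x, the X-linked form of a small subunit protein, read 13.01, 12.94 and 12.99 under HSF1 shRNA, against 13.24, 13.22 and 13.22 in scrambled arrays (-0.25 ± 0.05, adjusted p = 0.0062). Rps28, a small subunit protein near the exit of the messenger, read 12.70, 12.62 and 12.67 under HSF1 shRNA, against 12.94, 12.89 and 12.88 in scrambled arrays (-0.24 ± 0.05, adjusted p = 0.0072). In both genes the groups were set apart by more than the range within either. Rps9, which lies near the entry of the messenger, read 12.88, 12.90 and 12.71 under HSF1 shRNA, against 13.04, 13.08 and 13.09 in scrambled arrays (-0.25 ± 0.06, adjusted p = 0.018). Rps18, a protein of the head of the small subunit, read 13.49, 13.45 and 13.33 under HSF1 shRNA, against 13.61, 13.62 and 13.66 in scrambled arrays (-0.21 ± 0.05, adjusted p = 0.029). For these genes too the groups did not overlap, and HSF1 shRNA array 3 was the lowest of the knockdown arrays. The call for Rps9 was lost without scrambled array 2, scrambled array 3 or HSF1 shRNA array 3. The call for Rps18 was lost without any 1 of the scrambled arrays or without HSF1 shRNA array 2 or 3, and with a block for replicate number.

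On the large subunit, Rpl10a, the protein of the stalk that guides spent tRNA out of the ribosome, read 13.76, 13.68 and 13.63 under HSF1 shRNA, against 13.97, 13.87 and 13.93 in scrambled arrays. It fell by 14.8% (-0.23 ± 0.05, limma adjusted p = 0.014), a call lost without scrambled array 1, scrambled array 3 or HSF1 shRNA array 3. Rpl23a, which sits at the exit of the peptide tunnel where factors dock, read 12.45, 12.42 and 12.39 under HSF1 shRNA, against 12.56, 12.58 and 12.66 in scrambled arrays (-0.18 ± 0.05, adjusted p = 0.031). The groups did not overlap, but the call was lost without any 1 scrambled array or without HSF1 shRNA array 2 or 3, and with a block for replicate number. The calls for Rps20, Rps28 and Rps4x held in all 20 alternatives tried. The count of 7 fell to 3 without scrambled array 3 or without HSF1 shRNA array 3, and to 4 without scrambled array 1 or 2. The share of all genes called lower fell too, from 6.21% to 4.05% and 3.54% in the first 2 settings. It fell to 4.06% and 3.79% in the last 2.

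Under RPA1 shRNA 10 genes were called lower, 16.4% of the 61, against a background of 14.7% of all genes called lower. Among genes above the median gene 23.2% of members were lower, against 27.1% of genes. Higher was 1 gene (1.64%), against 15.4% of all genes. In either direction 11 genes were called, where 30.1% of all genes were, so both the share lower and the share changed lay near or under the background. In 20 genes (32.8%) all RPA1 shRNA arrays lay below all scrambled arrays, against 19.2% of all genes, and in 2 genes all lay above (3.28%), against 21.9%. The genes called lower were 5 of the large subunit and 5 of the small.

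On the small subunit, Rps18 read 13.31, 13.23 and 13.32 under RPA1 shRNA, against 13.61, 13.62 and 13.66 in scrambled arrays, and it fell by 21.4% (-0.35 ± 0.05, limma adjusted p = 0.0012). Rps28 read 12.62, 12.56 and 12.58 under RPA1 shRNA, against 12.94, 12.89 and 12.88 in scrambled arrays (-0.32 ± 0.05, adjusted p = 0.00074). In these genes the highest RPA1 shRNA array lay well below the lowest scrambled array. Rps4x read 12.94, 12.90 and 12.99 under RPA1 shRNA, against 13.24, 13.22 and 13.22 in scrambled arrays (-0.29 ± 0.05, adjusted p = 0.0012). Rps9 read 12.85, 12.88 and 12.82 under RPA1 shRNA, against 13.04, 13.08 and 13.09 in scrambled arrays (-0.22 ± 0.06, adjusted p = 0.015). The groups did not overlap in either gene, and the call for Rps9 was lost without scrambled array 3. Rps3a1, a small subunit protein on its platform side, read 9.67, 9.53 and 9.79 under RPA1 shRNA, against 9.83, 9.91 and 10.01 in scrambled arrays (-0.25 ± 0.07, adjusted p = 0.028). That call was lost without scrambled array 2 or 3 or RPA1 shRNA array 1 or 2, and under 5 of the 11 other settings, the 3 other scalings among them.

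On the large subunit, Rpl9, a protein near the binding site of the translation factors, read 13.41, 13.24 and 13.57 under RPA1 shRNA, against 13.74, 13.81 and 13.74 in scrambled arrays. It fell by 22.0% (-0.36 ± 0.08, limma adjusted p = 0.0075), the largest fall among the rows kept for the 61 genes, with the knockdown arrays more spread than the scrambled ones. Rpl10a read 13.66, 13.71 and 13.69 under RPA1 shRNA, against 13.97, 13.87 and 13.93 in scrambled arrays (-0.23 ± 0.05, adjusted p = 0.0068). Its difference was the same size as under HSF1 shRNA. The large subunit proteins Rpl36 and Rpl28 were lower by -0.25 ± 0.06 (adjusted p = 0.011) and -0.23 ± 0.06 (adjusted p = 0.015), with no overlap of the groups. Rpl28 read 13.74, 13.71 and 13.67 under RPA1 shRNA, against 13.94, 13.95 and 13.93 in scrambled arrays. Rpl37a, a zinc-binding protein of the large subunit, read 12.22, 12.19 and 12.28 under RPA1 shRNA, against 12.48, 12.48 and 12.41 in scrambled arrays (-0.22 ± 0.07, adjusted p = 0.04). Its call was lost without any 1 scrambled array, HSF1 shRNA array 3, or RPA1 shRNA array 1 or 2, and without variance moderation. In all 20 alternatives 8 of the 11 calls held, those for Rpl10a, Rpl28, Rpl36, Rpl9, Rps18, Rps27l, Rps28 and Rps4x.

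The genes lower in both knockdowns were Rpl10a, Rps18, Rps28, Rps4x and Rps9, 5 of 61 (8.20%), against 4.27% of all genes. No member was higher in both, against 5.77% of all genes. Both comparisons share the scrambled arrays. Rps20 and Rpl23a passed only under HSF1 shRNA, and 5 genes, Rpl9, Rpl28, Rpl36, Rpl37a and Rps3a1, only under RPA1 shRNA. Passing in 1 comparison alone does not show a difference between the knockdowns. Rps28 and Rps4x were the genes whose calls held in all 20 alternatives in both knockdowns.

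**Figure D2:**
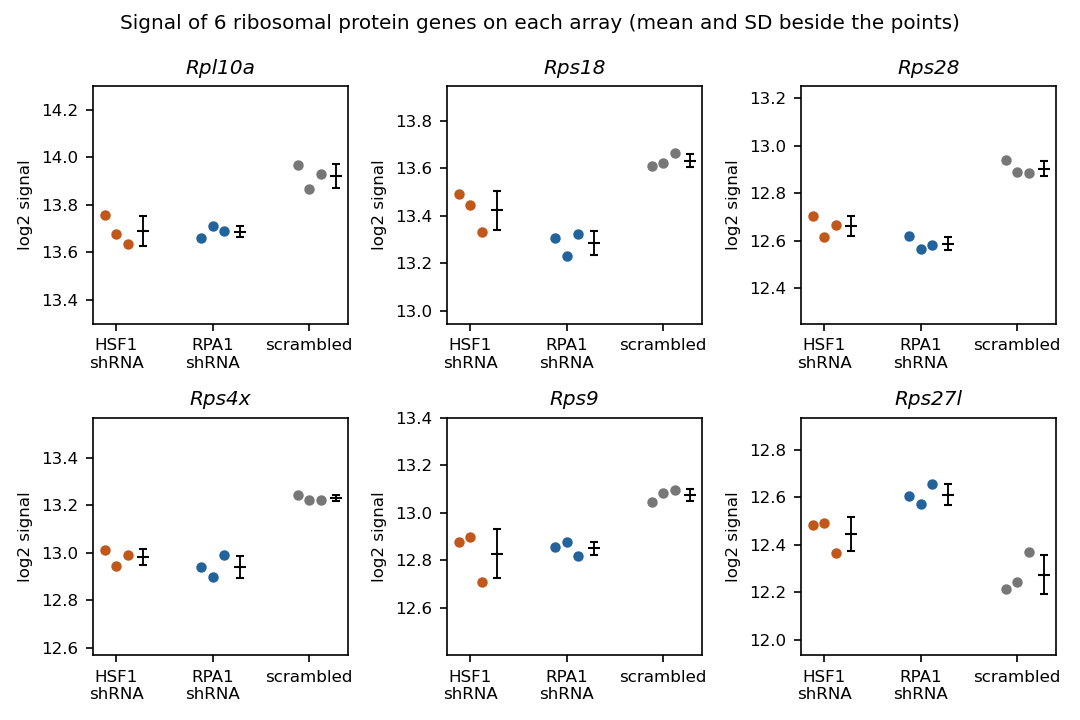
Log2 signal (vertical axes, each spanning 1 log2 unit) of Rpl10a, Rps18, Rps28, Rps4x, Rps9 and Rps27l on each array, with the mean and SD beside the points of the HSF1 shRNA, RPA1 shRNA and scrambled groups. For the first 5 genes every knockdown array lies below every scrambled array, and for Rps27l the RPA1 shRNA arrays lie above the scrambled ones.

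Paralogues of ribosomal protein genes are second copies, several of them used in particular tissues or responses. Rps27l, a paralogue of Rps27 that is a known p53 target, was the 1 member called higher than in scrambled arrays. It read 12.60, 12.57 and 12.66 under RPA1 shRNA, against 12.21, 12.24 and 12.37 in scrambled arrays, and rose by 26.2% (0.34 ± 0.06, limma adjusted p = 0.0022). Under HSF1 shRNA it read 12.48, 12.49 and 12.36, and its difference of 0.17 ± 0.06 did not pass (adjusted p = 0.084). The groups overlapped there by 1 array. Among the other paralogues measured, Rpl7l1, Rpl39l, Rpl3l, Rpl10l and Rps4l, none was called in any of the 3 comparisons. The medians over all 6 were 0.07 under HSF1 shRNA and 0.08 under RPA1 shRNA. Rpl39l, Rpl3l and Rpl10l, known from germ cells or striated muscle, had mean signals below 8. With these 6 and Rpl32l set aside 54 genes remained. Their median was -0.10 under HSF1 shRNA, with 7 called lower, and -0.09 under RPA1 shRNA, with 10 called lower and 0 higher.

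The ribosomal proteins known to bind MDM2, Rpl5, Rpl23 and Rps7, were not called in any comparison. Rpl5 read 12.92, 13.02 and 12.87 under HSF1 shRNA and between 12.97 and 13.03 under RPA1 shRNA, against 13.02, 13.11 and 13.14 in scrambled arrays. Its differences were -0.16 ± 0.05 (limma adjusted p = 0.089) and -0.09 ± 0.05 (adjusted p = 0.26). Rpl23 and Rps7 had differences of -0.13 ± 0.05 and -0.15 ± 0.05 under HSF1 shRNA, and of -0.10 ± 0.05 and -0.12 ± 0.05 under RPA1 shRNA. In all 3 genes the HSF1 shRNA arrays lay below the scrambled arrays before rounding. Mdm2 itself, the ubiquitin ligase that degrades p53, rose to 12.45, 12.49 and 12.09 under RPA1 shRNA and 11.07, 11.03 and 11.09 under HSF1 shRNA, against 10.69, 10.59 and 10.56 in scrambled arrays. Its differences were 1.73 ± 0.10 (adjusted p = 4.7e-06) under RPA1 shRNA and 0.45 ± 0.10 (adjusted p = 0.012) under HSF1 shRNA. Mdm2 belongs to a list of 12 genes on p53 regulation and the 5S ribosomal particle. Of these 8 were measured, and Trp53 and Cdkn1a were not. Under HSF1 shRNA 3 were called higher and 0 lower, against 9.89% and 6.21% of all genes. Under RPA1 shRNA 5 were higher, Mdm4 among them, and 1, Cdkn2a, was lower, against 15.4% and 14.7%.

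The stalk proteins that recruit elongation factors, Rplp0, Rplp1, Rplp2 and Rpl12, were not called. The 1 row of Rplp2 was dim, at 7.26 to 7.53 beside array medians of 7.72 to 7.81. Its lack of a call therefore says little. Rplp0 read 14.15, 14.14 and 14.10 under HSF1 shRNA and 14.00, 13.96 and 14.21 under RPA1 shRNA, against 14.20, 14.20 and 14.21 in scrambled arrays. Rpl12 read 9.46, 9.48 and 10.07 under RPA1 shRNA, against 9.36, 9.32 and 9.55 in scrambled arrays, so that 1 array set its difference of 0.25 ± 0.16 (limma adjusted p = 0.27). Rps6, the target of the S6 kinases, read 14.14, 14.18 and 14.16 under HSF1 shRNA and 14.18, 14.21 and 14.20 under RPA1 shRNA, against 14.21, 14.20 and 14.22 in scrambled arrays. Its intervals at 95% confidence ran between -0.14 and 0.05 under HSF1 shRNA and between -0.10 and 0.08 under RPA1 shRNA. Rps19, mutated in human Diamond-Blackfan anaemia, had differences of -0.18 ± 0.11 and -0.11 ± 0.11, neither called. Rpsa, which is also known as a laminin receptor, had differences of -0.14 ± 0.09 and 0.02 ± 0.09. Its 5 rows ran between -0.18 and 0.02 under RPA1 shRNA, with 4 below 0 and none called. Of 7 measured genes of 13 linked to that human anaemia, 1 was called lower in each knockdown, Rps28. Over all genes 6.21% were lower under HSF1 shRNA and 14.7% under RPA1 shRNA, so 1 call in 7 genes says little about this list.

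The precision of the arrays was enough to bound most differences in signal. Of the 61 genes 21 had a mean signal over 13, where the highest value of any row was 14.97. Whether signals this bright understate a change in transcript was not tested. The median standard error over the 61 genes was 0.06, and the largest was 0.16, for Rpl12. The 95% interval lay within 1.5-fold in both directions for 61 of 61 genes under HSF1 shRNA and 60 of 61 under RPA1 shRNA, where Rpl12 was the exception with an upper bound of 0.61.  A p that missed the threshold does not show that a gene did not change.

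Split by subunit, both sets had medians below 0 in both knockdowns. The 38 large subunit genes had median differences of -0.08 under HSF1 shRNA and -0.08 under RPA1 shRNA, with 2 and 5 called lower. The 23 small subunit genes had medians of -0.11 in both, with 5 called lower in each and 1, Rps27l, called higher under RPA1 shRNA. Over all genes 6.21% were called lower under HSF1 shRNA, and 14.7% lower and 15.4% higher under RPA1 shRNA. Whether the subunits differed from this background or from each other was not tested.

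Set against each other, RPA1 shRNA and HSF1 shRNA differed in 3 of the 61 genes, where 24.4% of all genes were called. The median difference, RPA1 minus HSF1, was 0.00, against -0.02 over all genes. Higher were 2 members (3.28%), against a background of 9.71% of all genes, and 1 was lower (1.64%), against 14.7%. All RPA1 shRNA arrays lay above all HSF1 shRNA arrays for 5 genes, against 14.1% of all genes, and below them for 4, against 20.5%. An unadjusted p under 0.05 was reached by 8 genes, against 35.3% of all. Rps20 read 13.62, 13.59 and 13.63 under RPA1 shRNA, against 13.45, 13.49 and 13.41 under HSF1 shRNA (0.16 ± 0.04, limma adjusted p = 0.025). Rpl4, which reaches into the peptide tunnel, read 12.58, 12.51 and 12.58 under RPA1 shRNA, against 12.41, 12.41 and 12.39 under HSF1 shRNA (0.15 ± 0.04, adjusted p = 0.035). Rps21, a small subunit protein, read 10.18, 10.20 and 10.38 under RPA1 shRNA, against 10.58, 10.51 and 10.38 under HSF1 shRNA (-0.23 ± 0.07, adjusted p = 0.037). The groups did not overlap for Rps20 and Rpl4, and met at 10.38 for Rps21. All 3 calls were lost with some arrays left out: that for Rps20 without HSF1 shRNA array 1 or 3 or RPA1 shRNA array 1, that for Rpl4 without scrambled array 1 or 3, RPA1 shRNA array 1 or any HSF1 shRNA array, and that for Rps21 without any scrambled array or without array 1 or 2 of either knockdown. All 3 calls were also lost with only the 6 arrays compared and with a block for replicate number. That for Rps21 was lost too after median scaling, after cyclic loess and without variance moderation. The intervals lay within 1.5-fold for all 61 genes.

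By array, the median of the 61 genes, each set against its scrambled mean, was -0.07, -0.07 and -0.11 in HSF1 shRNA arrays 1 to 3. It was -0.08, -0.11 and -0.02 in RPA1 shRNA arrays 1 to 3, and -0.01, 0.00 and 0.02 in the scrambled arrays. RPA1 shRNA array 3 thus lay next to scrambled array 1, and 39 and 40 genes lay below the scrambled mean on these arrays. The unscaled median signal of the genes did not separate the groups: it was 12.43 to 12.59 under HSF1 shRNA and 12.56 to 12.60 under RPA1 shRNA, against 12.56 to 12.66 in scrambled arrays. RPA1 shRNA array 3 was the highest of its group for 42 of 61 genes, and HSF1 shRNA array 3 the lowest of its group for 41. Limma array weights, which lower the pull of arrays that stand apart, were lowest for RPA1 shRNA array 3, at 0.21, and highest for RPA1 shRNA array 1, at 3.08. Without RPA1 shRNA array 3 the genes called lower under RPA1 shRNA numbered 14 (23.0%), against 17.8% of all genes. With all arrays the shares were 16.4% and 14.7%.

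**Figure D3:**
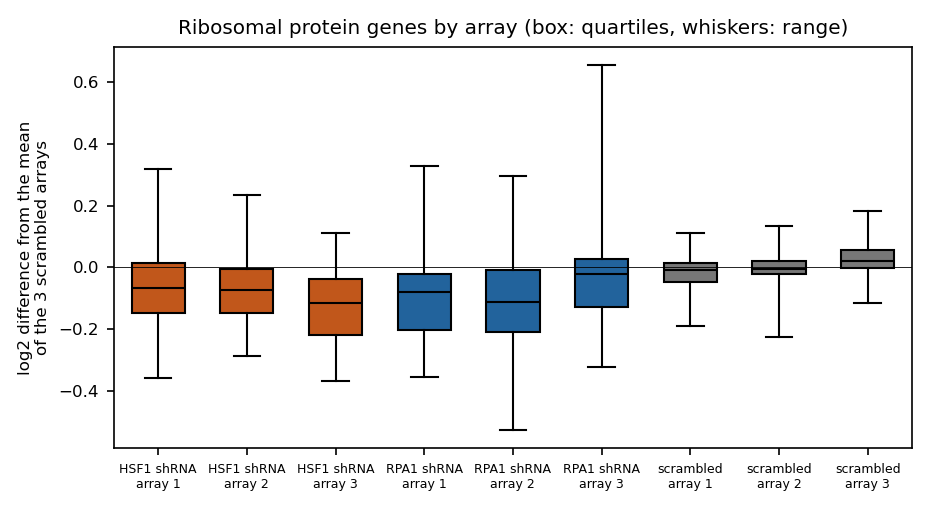
Log2 difference from the mean of the 3 scrambled arrays (vertical axis) of the 61 ribosomal protein genes on each of the 9 arrays, HSF1 shRNA, RPA1 shRNA and scrambled from left to right. Boxes give the quartiles with the median and whiskers the full range. The median of RPA1 shRNA array 3, at -0.02, lies next to that of scrambled array 1, at -0.01, and the other knockdown arrays lie between -0.11 and -0.07.

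Genes of this family have many near-identical pseudogenes, so probes of a row can also pair with copies, and which copy a signal came from is uncertain. The 61 genes had 217 rows, 22 with 1 row and 39 with several, up to 14 rows for Rps12. Rows of a gene can share probes and are not independent, though they can differ in level, as for Rpl23 with mean signals of 9.01 and 13.24, and in size of change. Under HSF1 shRNA 42 of the 217 rows were called lower and 0 higher, and under RPA1 shRNA 54 lower and 1 higher, by limma. Genes with many rows weigh more in these counts. With every row as its own unit and 1 row counted per gene, 11.5% of the 61 genes were lower under HSF1 shRNA. Of all genes 6.23% were lower and 9.94% higher there. Under RPA1 shRNA 16.4% of the 61 were lower, against 14.6% of all genes lower and 15.4% higher. No gene had rows called in opposite ways. All 7 rows of Rps28 and all 5 rows of Rps4x were called lower in both knockdowns, as were all 4 rows of Rpl10a and both rows of Rps9. For Rpl23a all 13 rows passed under HSF1 shRNA, and for Rpl9 all 8 rows, for Rpl36 all 9 and for Rpl28 all 5 under RPA1 shRNA. Rps18 passed on 6 of 7 rows under HSF1 shRNA and on 7 of 7 under RPA1 shRNA, where its rows ran between -0.55 and -0.35. Between RPA1 and HSF1 shRNA 2 of its 7 rows were called lower, and the 2 rows of Rps21 read -0.50 and -0.23, both called. Rows disagreed for Rpl7, where 3 of 4 were called lower in each knockdown but the row kept for the gene was not. They disagreed too for Rpl10 under HSF1 shRNA, with 1 of 6 rows lower, and for Rps14 and Rps4l under RPA1 shRNA, with 1 of 2 rows lower.

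The mitochondrial ribosome, which translates the genes of the mitochondrial genome, had medians above 0 in both knockdowns. Of 77 measured genes for its proteins, 17 were called higher and 1 lower under HSF1 shRNA, against 9.89% and 6.21% of all genes. Their median was 0.15, against 0.04 over all genes. Under RPA1 shRNA 25 were higher and 3 lower, against 15.4% and 14.7% of all genes. Their median there was 0.08, against 0.02. Mrpl20 read 10.37, 10.33 and 10.21 under HSF1 shRNA, against 9.55, 9.82 and 9.79 in scrambled arrays (0.59 ± 0.10, limma adjusted p = 0.0045). Mrpl23 was lower in both, by -0.38 ± 0.07 under HSF1 shRNA (adjusted p = 0.0077) and -0.37 ± 0.07 under RPA1 shRNA (adjusted p = 0.0041). The direct comparison called 4 higher and 15 lower, against 9.71% and 14.7% of all genes. Whether the cytosolic and mitochondrial genes differed was not tested.

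**Figure D4:**
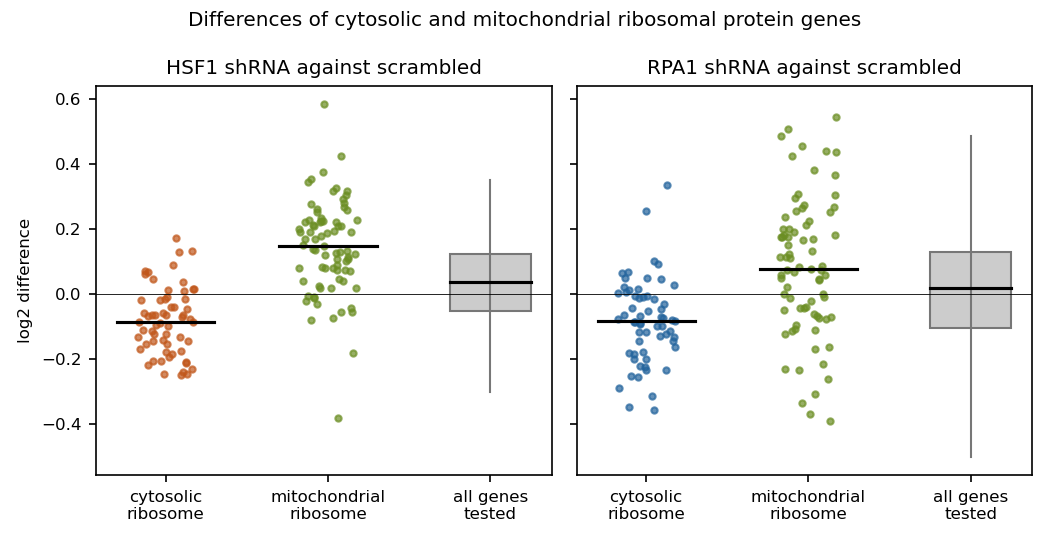
Log2 differences (vertical axis) of the 61 cytosolic and 77 mitochondrial ribosomal protein genes (points, with medians as lines) under HSF1 shRNA (left) and RPA1 shRNA (right), beside all genes tested (box: quartiles, line: 5th to 95th percentile). The medians are -0.09 and 0.15 under HSF1 shRNA and -0.08 and 0.08 under RPA1 shRNA, for cytosolic and mitochondrial genes.

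Other genes whose messengers carry a 5′ TOP tract, mainly translation elongation factors, moved in a mixed way. Of 18 measured of 20, 3 were called lower and 1 higher in each knockdown, with medians of -0.06 and -0.06. Over all genes 6.21% were lower and 9.89% higher under HSF1 shRNA, and 14.7% and 15.4% under RPA1 shRNA. Eif4b, a helper of the helicase of initiation, fell by 0.24 ± 0.05 on the log2 scale under HSF1 shRNA (limma adjusted p = 0.009) and by 0.26 ± 0.05 under RPA1 shRNA (adjusted p = 0.0026). Eef1b2, a subunit of the exchange factor for the elongation factor that brings tRNA, fell by 0.21 ± 0.06 and by 0.23 ± 0.06, and Eef2, the translocase, by 0.17 ± 0.05 and by 0.20 ± 0.05, under HSF1 and RPA1 shRNA. Eef1d, another subunit of the exchange factor, rose by 0.20 ± 0.05 under HSF1 shRNA and by 0.48 ± 0.05 under RPA1 shRNA (adjusted p = 7.8e-05). Fau, which encodes a small subunit protein fused to a ubiquitin-like domain, had differences of 0.01 ± 0.05 and -0.05 ± 0.05, with adjusted p of 0.91 and 0.48.

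Chaperones and import factors of ribosomal proteins were mostly on the opposite side. Of 16 measured of 17, 4 were called higher and 0 lower under HSF1 shRNA, against 9.89% and 6.21% of all genes. Their median was 0.14. Under RPA1 shRNA 6 were higher and 2 lower, against 15.4% and 14.7% of all genes, with a median of 0.13. With 0 lower under HSF1 shRNA by limma, 7 of the 16 had an unadjusted p under 0.05 in either direction, against 28.6% of genes. Grwd1, a chaperone of Rpl3, was higher by 0.43 ± 0.11 under HSF1 shRNA (adjusted p = 0.023) and 0.48 ± 0.11 under RPA1 shRNA (adjusted p = 0.0073). Ltv1, an assembly factor of the small subunit, was higher by 0.41 ± 0.08 and 0.44 ± 0.08. Aamp, whose yeast relative Sqt1 is a chaperone of a large subunit protein, was lower under RPA1 shRNA, by -0.49 ± 0.06 (adjusted p = 0.00036).

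Genes of mTORC1 and of TOP control held 7 calls in the direct comparison. Of these 6 were higher and 1 lower under RPA1 shRNA than under HSF1 shRNA, against 9.71% and 14.7% of all genes. Of 17 measured of 18, 1 was higher and 3 lower under HSF1 shRNA, against 9.89% and 6.21% of all genes. Under RPA1 shRNA 5 were higher and 1 lower, against 15.4% and 14.7% of all genes. Eif4ebp2, a repressor of cap-dependent initiation, read 11.30, 11.31 and 11.17 under HSF1 shRNA and 12.33, 12.34 and 12.19 under RPA1 shRNA, against 12.14, 11.95 and 11.90 in scrambled arrays. It differed by 1.02 ± 0.08 between RPA1 and HSF1 shRNA (limma adjusted p = 7.7e-05). Larp1, the protein that binds 5′ TOP messengers, was lower under HSF1 shRNA by -0.18 ± 0.05 (adjusted p = 0.027), and its difference of 0.06 ± 0.05 under RPA1 shRNA did not pass. Sesn1, an inhibitor of mTORC1, fell by 0.63 ± 0.11 under HSF1 shRNA (adjusted p = 0.0045). Under RPA1 shRNA it fell by 1.22 ± 0.11 (adjusted p = 4.7e-05). Sesn2 of the same list went the other way under RPA1 shRNA, higher by 0.38 ± 0.07 (adjusted p = 0.0034).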

How the data were processed

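The deposited table holds log2 signals of 9 arrays, 3 per group, used as deposited. They were made by the authors with RMA in Partek 6.5, per the submitters' processing notes; the log2 scale was inferred from the range of the values, since the notes do not state it. Genes were named through the annotation table given for the array: 21789 of 35557 rows had 1 symbol, 1621 had several and 12147 were not listed. Rows with several symbols were not used. Each gene took its row of highest mean over all 9 arrays. Groups came from the sample titles.

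R 4.3.3 and limma 3.58.1 fitted 1 mean per group to all 9 arrays (6 residual and 3.51 prior degrees of freedom), with 3 contrasts, eBayes and Benjamini-Hochberg adjustment over 19938 genes, two-sided. Because the smallest exact p for groups of 3 is 0.1, the calls rest on the limma variance model. No filter on dim genes was used. The fit was first tested on simulated data, in which 200 genes were changed. Signals have no depth; the 3 arrays per group limit the precision. Array medians were 7.72 to 7.81, and mean within-group correlations were 0.992 to 0.995. The members and lists were chosen with earlier results of these data known. Named genes are Rpa1, the up to 10 called members with the largest rise and fall in each comparison, fixed stalk, MDM2-binding and paralogue genes, members whose rows differ, and up to 3 called genes each way per list. Rpl12, Rpl32l, Rps12 and Fau, and the genes holding a heat shock element, were named outside this rule, after their values were seen. Alternatives were other scalings, row choices, arrays, weights, moderation, a replicate block and each array left out.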

Additional observations from a re-analysis of the deposited data

How the results depend on the processing

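Under HSF1 shRNA the genes called lower numbered 7. The count was 17 after cyclic loess scaling (8.70% of all genes lower), 11 with only the 6 arrays compared (8.76%), 14 with array weights (11.0%) and 12 with eBayes with trend and robust (6.58%), beside 6.21% of all genes in the reported fit. The count higher was 1 with array weights and 1 with trend and robust. The median of -0.09 was -0.12 after median scaling and -0.12 after cyclic loess. Under RPA1 shRNA the 10 lower became 25 with array weights, where 22.6% of all genes were lower, beside 14.7% in the reported fit. Between RPA1 and HSF1 shRNA the 2 higher and 1 lower became 4 and 1 after quantile scaling, 4 and 0 after median scaling or cyclic loess, 3 and 2 over genes above the median gene, 0 and 0 with only the 6 arrays compared, 4 and 4 with array weights, 3 and 0 without variance moderation and 4 and 3 with trend and robust. Their median was 0.00, and 0.04 after median scaling. In a setting chosen after seeing the data, genes with mean signal over 12 (997 genes, 42 members), 2 were higher and 17 lower under HSF1 shRNA, with a median of -0.12, where 26.5% of those genes were higher and 14.5% lower. Between RPA1 and HSF1 shRNA 4 were higher and 2 lower, where 160 of the 997 genes were higher and 282 lower (28.3%). The cause of these changes was not tested. The called members kept their sign in every alternative, while the median between RPA1 and HSF1 shRNA took either sign, and so did the balance of its calls.

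With each array left out the counts under HSF1 shRNA ran between 0 and 0 higher and 3 and 10 lower, with medians of -0.10 to -0.07. Of all genes 5.74% to 14.4% were higher and 3.54% to 9.16% lower in these settings. Under RPA1 shRNA the counts ran between 1 and 1 higher and 7 and 14 lower, with medians of -0.10 to -0.07, where 11.5% to 18.5% of all genes were higher and 11.2% to 17.8% lower. Between RPA1 and HSF1 shRNA the counts ran between 0 and 2 higher and 0 and 4 lower, with medians of -0.03 to 0.02, where 6.36% to 13.9% of all genes were higher and 9.52% to 18.9% lower. Over all genes, 1971 were higher and 1239 lower under HSF1 shRNA, a balance that turned to 1593 and 1717 after median scaling.

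With the replicate block 6 members were lower under HSF1 shRNA and 10 under RPA1 shRNA, against 5.56% and 13.9% of all genes. Between the knockdowns 1 was higher and 0 lower, against 9.03% and 13.1% of all genes. The replicate numbers gave no clear pairing of the samples. Same-numbered arrays of different groups had correlations of -0.16 to 0.09, with 0 of 9 over 0.1, and 0 arrays correlated best with their own number. These are not correlations of the signals themselves, which were 0.992 to 0.995 within groups. Between RPA1 shRNA and scrambled arrays they were 0.09, 0.09 and 0.07. Between HSF1 shRNA and scrambled arrays they were -0.13, 0.01 and 0.01. A weak pairing is not excluded.

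Among the genes named, 1747 values under other settings kept their side, 88 moved, 82 passed where they had not and 60 no longer passed. With 3 arrays per group, the median standard error of a difference was 0.06. The smallest called difference of a member was 0.15 after rounding, for Rpl4 between RPA1 and HSF1 shRNA. Rpl12, at 0.25 under RPA1 shRNA, was not called.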
